A study of Mus musculus with 6 samples.

Results

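Genes of the cell death machinery and its TNF receptor inputs were followed in primary mouse hepatocytes exposed to interleukin-1β. The group holds 42 genes named by symbol, from death receptors and caspases to the BCL2 family, of the 23282 genes in the deposited table. All 42 were listed and all had at least 1 read. Of these, 36 had enough reads to be tested, beside 11657 genes tested in all. The genes were chosen by symbol as members of the known pathway, with earlier results of these data known. Hepatocytes were isolated from livers of mice (labelled C57BL6/N) by collagenase perfusion, plated, and either left without treatment (control, 3 samples) or given recombinant IL-1β protein for 24 h (IL-1β, 3 samples). The series title calls the cells metabolically stressed, but the labels name only the IL-1β treatment, and the design text speaks of 2 samples per group while naming 3. No transgene, deletion or diet was named for these samples, and the dose for the sequenced wells, the age and sex of the mice and the number of mice were not given in the sources used here. The p-values below therefore measure the spread between these samples, which may be technical.

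Cells can be killed from outside, when a ligand such as TNF or FasL binds a death receptor and the adaptors FADD and TRADD bring caspase-8 into action, or from inside, when BH3-only proteins free BAX and BAK to open the outer mitochondrial membrane and cytochrome c then starts caspase-9 on the APAF1 platform. Hepatocytes are known for linking both routes, because caspase-8 cuts BID and the fragment acts on mitochondria. In pyroptosis, inflammatory caspases cut gasdermin D, which forms a pore, and necroptosis runs through RIPK3 and MLKL.

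Reads from the 3′ ends of mRNAs were counted per gene, and levels are given as CPM (counts scaled to a common library size) after TMM scaling, which also corrects for composition. Total counts ranged from 9538741 to 11105408 per library, so that 3 reads stood for 0.269 to 0.321 CPM, and the ribosomal RNA precursor Rn45s took 11.7% to 14.2% of them. Of the hepatocyte markers, Alb was at 13476 CPM or more in every library, whereas Cps1, Ass1 and Pck1 were at 3.22 CPM or less in every library. Of 9 hepatocyte markers tested, 7 were lower and 1 higher after IL-1β, with a median log2 fold change of -0.35. In bulk RNA, fewer cells of a type and less RNA per cell cannot be told apart. Of 11 Kupffer cell and macrophage markers tested, Mpeg1 was higher and none was lower. Their sum was 318 to 356 CPM in the controls and 391 to 401 CPM after IL-1β, and without Mpeg1 it was 239 to 273 CPM and 244 to 277 CPM. Among them, Cd68 was at 172 to 204 CPM over the 6 libraries and made up most of the sum without Mpeg1. Ctss was at 27.6 to 32.2 CPM, Cd5l at 16 to 20.5 CPM and Marco at 2.86 to 7.27 CPM. Csf1r, Adgre1, Lyz2, C1qa, C1qb, C1qc and Vsig4 were at 6.24 CPM or less in every library. Clec4f and Timd4 were at or below 2.42 CPM and 0.093 CPM and, like Vsig4, were not tested. Of 10 endothelial markers tested, Clec4g and Kdr were lower (log2 fold change -2.87 and -1.49) and Lyve1 was higher (0.45), and of 2 cholangiocyte markers tested, Spp1 was lower (-1.20). None of 3 stellate cell markers tested was called. The part of these cell types in the differences below was not tested. Of the neutrophil markers, S100a9, Retnlg, Mpo, Elane and Ngp had 0 reads in all 6 libraries, while S100a8 had none in the controls and 2.03 to 4.74 CPM after IL-1β.

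IL-1β raised 6 of the 42 genes and lowered 2 at an adjusted p below 0.05 (edgeR quasi-likelihood test, Benjamini-Hochberg adjustment over all genes tested), and a gene past this threshold is called below. The increases were in Casp4, Tnfrsf1b, Fas, Birc3, Gsdmd and Bid, and the decreases in Bcl2 and Xiap. The 8 calls were 22.2% of the 36 genes tested, against 13.4% of all genes tested. By direction, 16.7% of the group was called higher, against 6.97% of all genes, and 5.56% was called lower, against 6.44%. The median log2 fold change of the 36 genes was 0.069, and that of all genes was -0.0018. The IL-1β and control values did not overlap in 12 of the 36 genes, or 33.3%, against 28.2% of all genes. With 3 samples per group, the smallest two-sided p of an exact permutation test is 0.1.

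**Figure D1:**
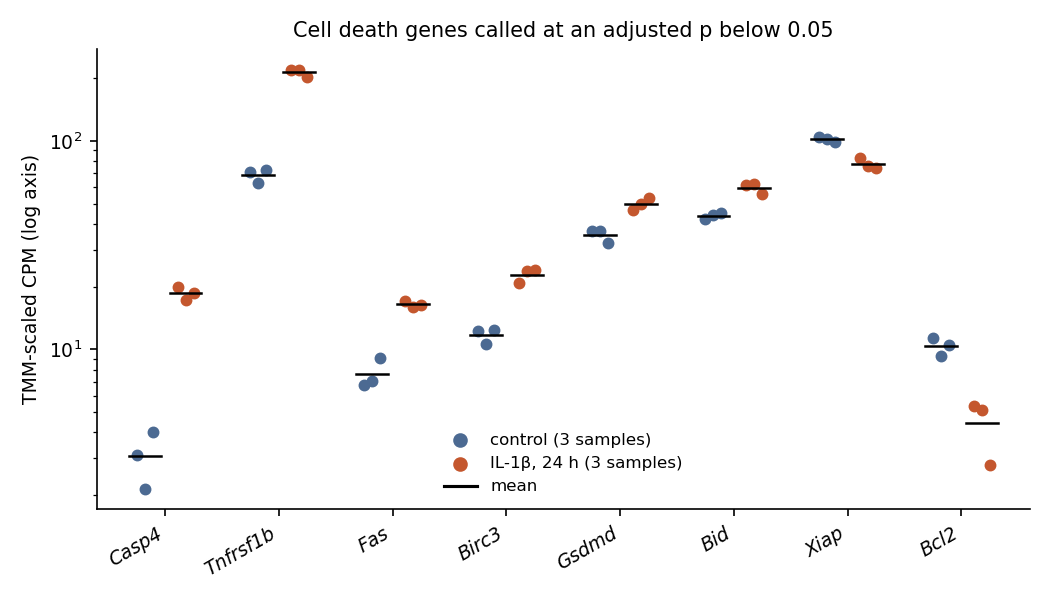
Levels of the 8 called genes in each of the 6 samples, as TMM-scaled CPM on a log axis, with the mean of each group as a line. All IL-1β samples lie above all controls in Casp4, Tnfrsf1b, Fas, Birc3, Gsdmd and Bid, and below them in Xiap and Bcl2.

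Among the receptors, Tnfrsf1b and Fas rose. Tnfrsf1b encodes TNF receptor 2, which lacks a death domain and signals mainly through TRAF proteins. It was at 71.0, 63.0 and 72.2 CPM in the controls and at 218, 218 and 203 CPM after IL-1β. The groups were far apart, with a 3.10-fold increase (log2 fold change 1.63, standard error 0.077, adjusted p = 2.4e-14 from edgeR). Tnfrsf1a encodes TNF receptor 1, the TNF receptor with a death domain. It was at 99.1, 110 and 121 CPM in the controls and at 122, 108 and 117 CPM after IL-1β. Its groups overlapped, and its log2 fold change of 0.076 had a 95% interval from -0.095 to 0.25. Within each library, the reads of Tnfrsf1b over those of Tnfrsf1a gave ratios of 0.717, 0.573 and 0.599 in the controls and 1.79, 2.01 and 1.73 after IL-1β. The ratio of one receptor's reads to the other's thus shifted by 1.55 on the log2 scale (standard error 0.12, two-sided exact permutation p = 0.1, the lowest that 3 and 3 samples allow). This ratio and the others below do not depend on scaling, and the pairs were chosen after the values were seen.

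Fas, the receptor of FasL, was at 6.76, 7.07 and 9.07 CPM in the controls and at 17, 15.9 and 16.4 CPM after IL-1β. Every IL-1β sample was above every control, and the increase was 2.15-fold (log2 fold change 1.10, standard error 0.18, adjusted p = 6.5e-05 from edgeR). Fadd and Tradd, which encode the adaptors of the death receptors, were not called. Fadd was at 21.8, 18.4 and 18.1 CPM in the controls and 16.7, 22.9 and 19.1 CPM after IL-1β, and Tradd at 22.9, 24.2 and 28.6 CPM against 26, 25.2 and 24.2 CPM. The groups overlapped in both, and their log2 fold changes of 0.012 and -0.0066 had 95% intervals from -0.29 to 0.32 and from -0.27 to 0.25. Their sign depended on single libraries. Fadd was at -0.11 without IL-1β replicate 2, -0.025 without control replicate 2 and -0.037 without control replicate 3, and Tradd at 0.024 without IL-1β replicate 3 and 0.089 without control replicate 3. Tnfrsf10b, the mouse receptor of TRAIL, was at 31.3, 34.2 and 42 CPM in the controls and 47.8, 41.6 and 43.8 CPM after IL-1β. The highest control lay within the range of the IL-1β samples, and the adjusted p was 0.0792 (log2 fold change 0.31). Tnfrsf10b was called in 1 of 15 refits, without control replicate 3 (log2 fold change 0.44, adjusted p = 0.0155 from edgeR). Without IL-1β replicate 1 the adjusted p was 0.265. Tnfrsf12a, the receptor of TWEAK, was at 70.1, 44.5 and 38.5 CPM in the controls and 48.4, 34.8 and 53.5 CPM after IL-1β. One control stood above the other libraries, and the log2 fold change went from -0.16 to 0.13 without control replicate 1 and to 0.00085 without IL-1β replicate 2, with no call in any of the 3 fits.

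The ligands and Cd40 had few reads. Tnf, the ligand of both TNF receptors, had 2, 8 and 3 reads in the controls and 14, 13 and 13 after IL-1β. The groups did not overlap, but the fitted log2 fold change of 1.66 (standard error 0.62) rests on these few reads and had an adjusted p of 0.0831. Macrophages are a known source of TNF, and the part of the macrophage transcripts given above in this difference was not tested. Tnfsf10, which encodes TRAIL, had 4, 9 and 12 reads in the controls and 7, 5 and 1 after IL-1β, too few to be tested. Cd40, a costimulatory TNF receptor family member, had 1, 15 and 19 reads in the controls and 14, 16 and 11 after IL-1β. Its log2 fold change of 0.28 had a 95% interval from -0.97 to 1.53 and became -0.26 without control replicate 1.

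Of the 7 caspases, Casp4 was the only one called. Casp4 encodes the mouse inflammatory caspase known as caspase-11, which binds cytosolic lipopolysaccharide and cuts gasdermin D. It had 33, 24 and 40 reads in the controls and 186, 180 and 201 after IL-1β, or 3.10, 2.15 and 4.03 CPM against 19.9, 17.3 and 18.7 CPM. This was the largest change among the 36 genes, at 6.04-fold (log2 fold change 2.59, standard error 0.22, adjusted p = 1.7e-09 from edgeR), and it lay at percentile 99.5 of all genes tested. On GRCm38, Casp4 lies at 5308849 to 5336791 on the plus strand of chromosome 9, between Casp1, at 5298517 to 5307281, and Casp12, at 5345476 to 5373034. Casp1, the caspase that matures IL-1β, had 7, 23 and 12 reads in the controls and 15, 14 and 15 after IL-1β, and Casp12 had 17, 26 and 16 against 9, 20 and 19. Their groups overlapped, and their log2 fold changes of 0.13 and -0.24 had 95% intervals from -0.90 to 1.17 and from -1.17 to 0.69. Casp1 was at -0.19 without control replicate 1 and Casp12 at 0.0011 without IL-1β replicate 1. The reads of Casp4 over those of Casp1 were 4.71, 1.04 and 3.33 in the controls and 12.4, 12.9 and 13.4 after IL-1β, a shift of 2.34 on the log2 scale (standard error 0.66, exact permutation test, two-sided p = 0.1). No 75-nt window in the last 500 nt of the annotated Casp4, Casp1 or Casp12 transcripts occurs in a transcript of another gene.

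The apoptotic caspases of the group gave negative log2 fold changes without a call. Casp8, the initiator caspase of death receptors, was at 34.3, 22.3 and 24.6 CPM in the controls and 26.9, 17.8 and 22 CPM after IL-1β. The highest value was again in control replicate 1, and the log2 fold change of -0.29 was at -0.078 without it. Casp9, the initiator caspase of the mitochondrial route, was at 11, 13.9 and 12.6 CPM in the controls and 10.4, 12.7 and 9.11 CPM after IL-1β (log2 fold change -0.22, adjusted p = 0.534). Casp6, an executioner caspase, was at 14.7, 10.7 and 14.1 CPM against 11.3, 8.17 and 11.2 CPM (log2 fold change -0.37, adjusted p = 0.25). The groups overlapped in all 3 genes. Casp2, an initiator caspase linked to the DNA damage response, was at 8.83, 6.98 and 7.46 CPM in the controls and 4.92, 5.76 and 4.83 CPM after IL-1β. All 3 IL-1β samples were below the controls, with a log2 fold change of -0.58 (standard error 0.24) and an adjusted p of 0.119. The 95% intervals of all 4 genes, Casp2, Casp6, Casp8 and Casp9, reach beyond a 1.5-fold decrease, that of Casp2 running from -1.07 to -0.093 on the log2 scale.

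Of the 4 genes for inflammasomes and their pore, Gsdmd rose and the others had few reads. Gsdmd, which encodes gasdermin D, was at 36.8, 36.9 and 32.2 CPM in the controls and 46.5, 49.8 and 53.3 CPM after IL-1β. The groups did not overlap, and the increase was 1.41-fold (log2 fold change 0.50, standard error 0.10, adjusted p = 0.00122 from edgeR). Pycard, which encodes the inflammasome adaptor ASC, had 9, 13 and 8 reads in the controls and 26, 34 and 10 after IL-1β. One IL-1β sample lay among the controls, and the log2 fold change was 1.29 (adjusted p = 0.109 from edgeR). Pycard was called in 1 of 14 refits, without that IL-1β replicate 3 (1.67, adjusted p = 0.0378 from edgeR). Without IL-1β replicate 2 it was at 0.95, with an adjusted p of 0.435 from edgeR. Nlrp3 and Nlrp6, which encode inflammasome sensors, had 0 to 6 and 1 to 8 reads in a library and were not tested. Of the necroptosis genes, Mlkl, the pore-forming executioner, was at 28.1, 21.3 and 27.9 CPM in the controls and 20.5, 27 and 24.7 CPM after IL-1β. Its groups overlapped, and it had a log2 fold change of -0.093 with a 95% interval from -0.38 to 0.19, and was at 0.013 without IL-1β replicate 1. Ripk3, its kinase, had 12, 6 and 5 reads in the controls and 5, 8 and 11 after IL-1β, too few to be tested.

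**Figure D2:**
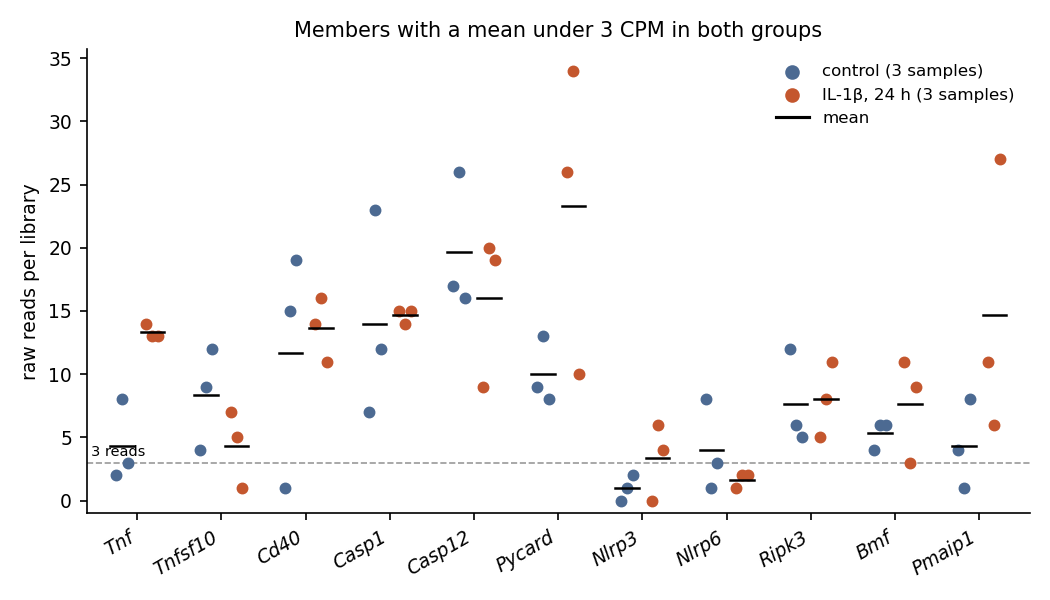
Raw reads per library of the 11 genes with a mean under 3 CPM in both groups, with group means as lines and the level of 3 reads dashed. Only Tnf has all IL-1β samples above all controls, and no gene here has them all below the controls.

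The promoters of the genes called higher with a log2 fold change of at least 1 are shown to let the letters before their starts be compared. They come from RefSeq on GRCm38.p6 and run from 250 bases before to 50 after the annotated start, on the strand of the gene. Casp4 has 2 starts in the table, of which the upstream one is shown. Capitals mark matches on either strand to the NF-κB consensus, to the AP-1 motif TGANTCA, to the C/EBP motif TTGCNNAA or to the p53 half-site consensus.
Casp4, chr9:5308599-5308898, plus strand: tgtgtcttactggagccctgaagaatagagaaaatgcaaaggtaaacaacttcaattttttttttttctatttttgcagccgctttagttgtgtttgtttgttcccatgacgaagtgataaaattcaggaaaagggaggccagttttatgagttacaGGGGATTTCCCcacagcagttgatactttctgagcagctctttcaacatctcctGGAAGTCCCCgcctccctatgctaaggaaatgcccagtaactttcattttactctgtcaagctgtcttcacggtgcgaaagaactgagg
Tnfrsf1b, chr4:145246821-145247120, minus strand: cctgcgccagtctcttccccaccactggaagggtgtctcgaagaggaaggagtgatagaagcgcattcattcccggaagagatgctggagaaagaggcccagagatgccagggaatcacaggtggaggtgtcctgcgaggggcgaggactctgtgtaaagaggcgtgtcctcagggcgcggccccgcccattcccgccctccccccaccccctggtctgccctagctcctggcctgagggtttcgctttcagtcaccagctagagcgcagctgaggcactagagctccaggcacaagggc
Fas, chr19:34290409-34290708, plus strand: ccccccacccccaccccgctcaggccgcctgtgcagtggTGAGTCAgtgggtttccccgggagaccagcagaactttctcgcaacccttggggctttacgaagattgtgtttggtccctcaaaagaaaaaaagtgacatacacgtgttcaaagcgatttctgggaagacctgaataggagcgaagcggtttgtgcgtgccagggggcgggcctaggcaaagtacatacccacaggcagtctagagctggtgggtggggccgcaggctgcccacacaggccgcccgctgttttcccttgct

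The Casp4 promoter holds the NF-κB consensus in 2 places. A pair of overlapping matches begins 93 and 92 bases before the start, and a match on the other strand begins 39 bases before it. The Fas promoter holds the AP-1 motif 211 bases before the start, and the Tnfrsf1b window holds none of the 4 motifs. RefSeq promoters were found for 36 of the 42 genes, and of these 6, or 16.7%, held the NF-κB consensus (Casp4, Xiap, Bcl2l1, Bbc3, Bmf and Nlrp3), against 9.55% of 27025 genes and 8.46% of 32851 promoters. A promoter was found for only 5 of the 6 genes called higher, and of these 5 only Casp4 held this consensus. Of the 2 genes called lower, Xiap held it. The AP-1 motif was in 2 of the 36 (8.97% of all genes), the C/EBP motif in 5 (12.2%) and the p53 half-site in 5 (9.55%). A match is a description of the letters and not a site of binding, and its absence from this window says nothing of the factor.

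The caspase inhibitors moved in different directions. Birc3, which encodes cIAP2, an inhibitor of apoptosis that ubiquitinates RIPK1 at TNF receptors, was at 12.3, 10.6 and 12.4 CPM in the controls and 20.7, 23.8 and 24 CPM after IL-1β. It rose 1.95-fold with no overlap (log2 fold change 0.96, standard error 0.15, adjusted p = 3.3e-05 from edgeR). Its neighbor Birc2, which encodes cIAP1, was at 29.1, 22.5 and 26.5 CPM in the controls and 28.1, 35.3 and 30.6 CPM after IL-1β. The groups of Birc2 overlapped, and its log2 fold change was 0.27, at an adjusted p of 0.196. Birc3 lies at 7848701 to 7873170 and Birc2 at 7818226 to 7837057 on the minus strand of chromosome 9 (GRCm38). The reads of Birc3 over those of Birc2 rose from 0.423, 0.47 and 0.468 to 0.738, 0.676 and 0.784 with no overlap, a shift of 0.69 on the log2 scale (standard error 0.08, exact permutation test, two-sided p = 0.1).

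Xiap, which encodes a direct inhibitor of initiator and executioner caspases, went the other way. It was at 104, 102 and 98.7 CPM in the controls and 82.4, 75.3 and 74.1 CPM after IL-1β. All IL-1β samples were below the controls, and the level fell by 24% (log2 fold change -0.40, standard error 0.08, adjusted p = 0.00096 from edgeR). Cflar, which encodes the caspase-8 inhibitor c-FLIP, was at 70.6, 76.9 and 73.9 CPM in the controls and 80.5, 83.9 and 68 CPM after IL-1β. These groups overlapped, and the log2 fold change of 0.069 had a 95% interval from -0.12 to 0.26.

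Of the BCL2 survival genes, Bcl2 fell, and Bcl2l1 and Mcl1 were lower in every IL-1β sample without a call. Bcl2 had 120, 104 and 104 reads in the controls and 50, 53 and 30 after IL-1β, or 11.3, 9.31 and 10.5 CPM against 5.35, 5.09 and 2.79 CPM. The groups were far apart, and the level fell by 57.6% (log2 fold change -1.24, standard error 0.25, adjusted p = 0.00089 from edgeR), at percentile 1.26 of all genes tested. Mcl1, which encodes a short-lived survival protein on which hepatocytes are known to depend, was at 244, 239 and 236 CPM in the controls and 213, 222 and 191 CPM after IL-1β. Its log2 fold change was -0.20 (standard error 0.07, 95% interval from -0.34 to -0.055) with an adjusted p of 0.0613. Mcl1 was called in 4 of 15 refits. Among them were upper-quartile scaling, at 0.0279, which moved the median of all genes to -0.03, and a fit blocked on replicate number, at 0.0336. Without IL-1β replicate 3, the log2 fold change of Mcl1 was -0.14, with an adjusted p of 0.314 from edgeR. Bcl2l1, which encodes BCL-XL, was at 122, 126 and 119 CPM in the controls and 104, 102 and 116 CPM after IL-1β, with a log2 fold change of -0.19 and an adjusted p of 0.107. Scaling by total counts alone, which moved the median of all genes to -0.055, gave calls for both, at 0.0158 for Mcl1 and 0.0313 for Bcl2l1. The reads of Bcl2 over those of Bcl2l1 were 0.0924, 0.0739 and 0.0878 in the controls and 0.0514, 0.05 and 0.0241 after IL-1β (shift of -1.09 on the log2 scale, standard error 0.37, exact permutation test, two-sided p = 0.1).

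Among the genes that promote mitochondrial death, Bid rose. Bid, the BH3-only gene that joins death receptors to mitochondria, was at 42, 43.9 and 44.9 CPM in the controls and 61.3, 61.7 and 55.4 CPM after IL-1β. The groups did not overlap, and the increase was 1.36-fold (log2 fold change 0.45, standard error 0.094, adjusted p = 0.00139 from edgeR). None of the other BH3-only genes was called. Bcl2l11, which encodes BIM, was at 14.3, 12.9 and 14.4 CPM in the controls and 15.6, 14.2 and 13.9 CPM after IL-1β, with a 95% interval of the log2 fold change from -0.25 to 0.39. Bad, an antagonist of BCL-XL, was at 42.9, 43 and 31.5 CPM against 36.9, 33.1 and 36.3 CPM, and Bbc3, which encodes the p53 target PUMA, at 20.6, 14.5 and 26.7 CPM against 22.7, 17.9 and 16 CPM. All of these groups overlapped, with log2 fold changes of -0.15 for Bad, -0.13 for Bbc3 and, for Bik, 0.40 (adjusted p = 0.407 from edgeR). Bbc3 was at 0.099 without control replicate 3. Bmf had 3 to 11 reads in a library. Pmaip1, which encodes NOXA, had 4, 1 and 8 reads in the controls and 11, 6 and 27 after IL-1β, too few to be tested.

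Of the effectors, Bak1 was at 33.4, 31.7 and 32.3 CPM in the controls and 34.6, 29.7 and 33.2 CPM after IL-1β. The groups overlapped, and its log2 fold change of -0.00029 had a 95% interval from -0.23 to 0.23, with a sign that changed when single libraries were left out. Bax was at 43.5, 24.7 and 25.5 CPM in the controls and 38.8, 28.4 and 41.9 CPM after IL-1β. The highest value of Bax was in control replicate 1, while the other 2 controls were below every IL-1β sample. Its log2 fold change was 0.22 (standard error 0.17, adjusted p = 0.489 from edgeR), and 0.54 without control replicate 1 (adjusted p = 0.00478). That was its 1 call in 15 refits. Of the windows at the 3′ end of the Bax transcripts, 13.9% are shared with the gene model Gm45808. Apaf1, the scaffold of the apoptosome, was at 11.2, 8.77 and 9.07 CPM in the controls and 11.2, 12.3 and 10.4 CPM after IL-1β. Cycs, which encodes cytochrome c, was at 102, 103 and 115 CPM against 89.7, 97.8 and 106 CPM, and Diablo, which encodes the XIAP antagonist SMAC, at 36.3, 32 and 41.4 CPM against 37.1, 42.5 and 38.2 CPM. The groups overlapped in all 3, with log2 fold changes of 0.23, -0.13 and 0.11 and no call. In Diablo, 31.5% of such windows are shared with the gene model Gm49027, and exons of B3gnt4 lie over its 3′ end on the other strand.

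**Figure D3:**
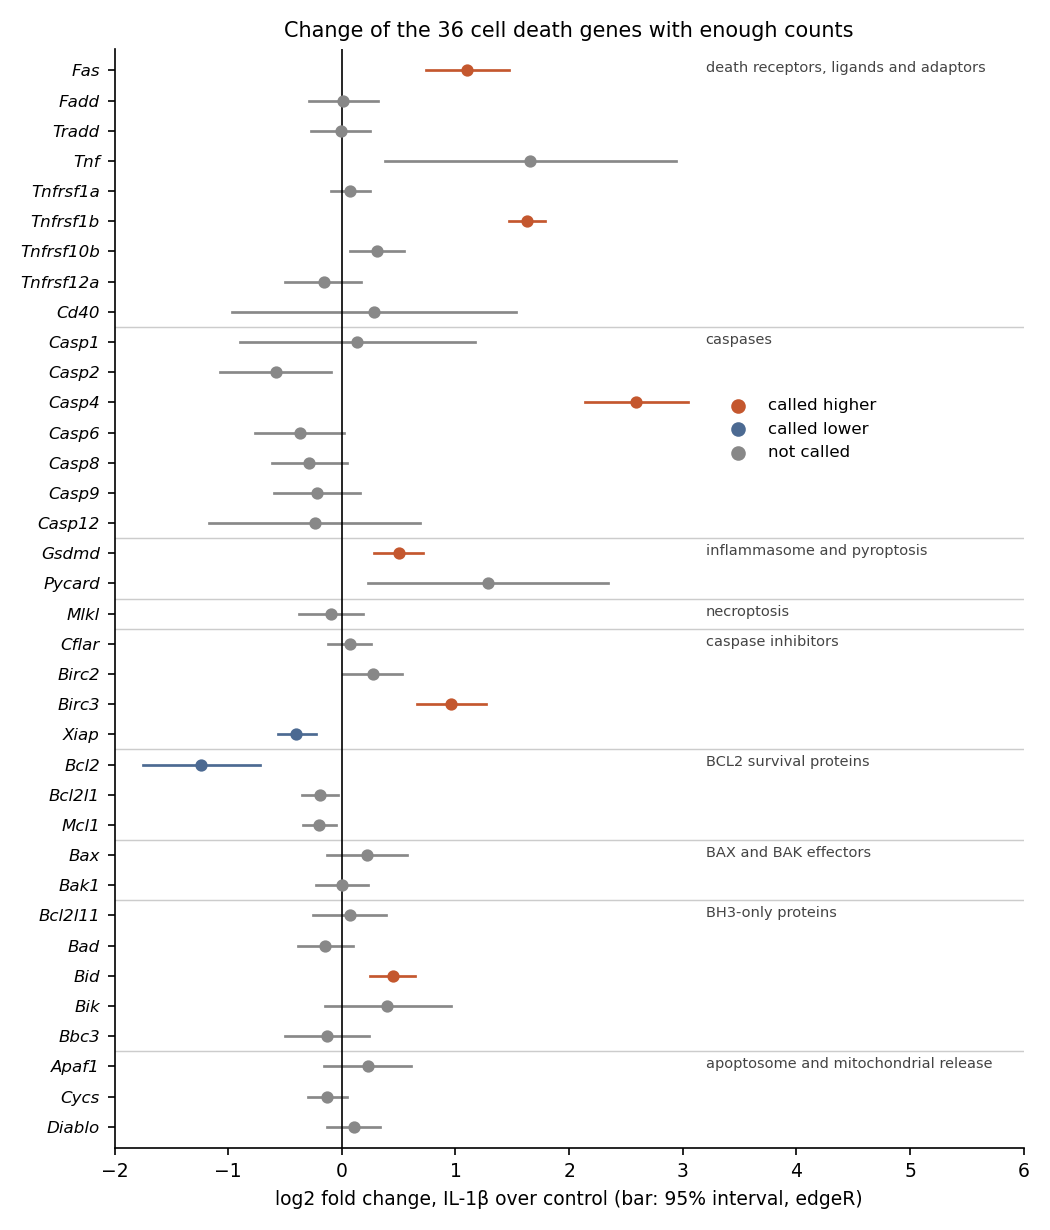
Log2 fold change of the 36 tested genes, IL-1β over control, with 95% intervals from edgeR, ordered by role and colored by call. The intervals of the 6 genes called higher and 2 called lower exclude 0, as do those of 7 genes not called, Tnf and Pycard among them. The widest intervals belong to genes with few reads such as Tnf, Cd40, Casp1 and Pycard.

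The 28 genes tested without a call were not all measured with the same precision. Of 21 with a mean of at least 10 CPM in a group, 17 had a 95% interval within a 1.5-fold change in either direction, and 4 (Casp6, Casp8, Casp9 and Apaf1) had one that reached beyond it. An unadjusted edgeR p below 0.05 was found in 15 of the 36 genes, or 41.7%, against 23.6% of all genes tested. Besides the 8 called, these were Tnf, Tnfrsf10b, Casp2, Pycard, Birc2, Bcl2l1 and Mcl1. Placed among all genes tested, 9 of the 36 were above percentile 90 and 2 below percentile 10.

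**Figure D4:**
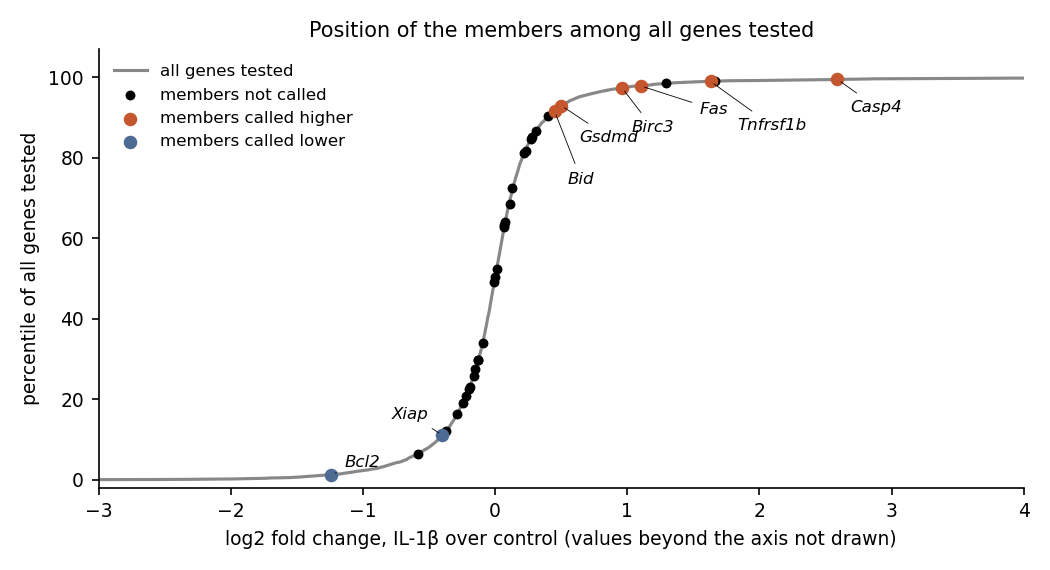
Percentile among all 11657 genes tested (vertical axis) against the log2 fold change, IL-1β over control (horizontal axis), as a line for all genes and points for the 36 cell death genes, colored by call. Casp4, Tnfrsf1b, Fas and Birc3 sit above percentile 97, Gsdmd and Bid above 91, Xiap at 11.1 and Bcl2 at 1.26.

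Other genes of these pathways, listed by function, were read from the same fit. Of 112 in the table, 70 were tested, 10 were called higher and 3 lower, with a median log2 fold change of 0.068. Of all genes tested, 6.97% were called higher and 6.44% lower, beside which the counts of each list below are to be read. Of 16 genes of TNF receptor signaling, 3 were higher and none lower, namely Tnfaip3, Tnip1 and Traf1. Tnfaip3, which encodes the ubiquitin-editing inhibitor A20, went from 4.82 ± 1.01 to 35.1 ± 3.19 CPM (SD, n = 3 per group, log2 fold change 2.87, adjusted p = 1.2e-12 from edgeR). Tnip1, an A20 partner, had a log2 fold change of 1.2, and Traf1, an adaptor bound by TNF receptor 2, one of 2.50 from 0.316 ± 0.113 CPM (SD, n = 3) in the controls. The kinase gene Ripk1 was not called (log2 fold change 0.018). Of 22 further TNF receptor family genes, 7 were tested, and Tnfrsf23, a decoy receptor, was lower (log2 fold change -0.66). Of 16 TNF family ligands, 3 were tested, none was called, and 9, Fasl among them, had 0 reads in every library.

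Of 5 further inflammasome and pyroptosis genes tested, Ninj1, which ruptures the membrane of dying cells, and Naip2, a flagellin and secretion system sensor family member, were higher (0.41 and 0.47 on the log2 scale), with overlapping groups in Ninj1. Of 12 further BCL2 family genes tested, Bnip3, Hrk and Bcl2a1b were higher and Bcl2l14 was lower. Bcl2l14 fell by 2.15 on the log2 scale, from 23 ± 2.51 to 5.19 ± 0.232 CPM (SD, n = 3 per group, adjusted p = 7.6e-10 from edgeR). Hrk, a BH3-only gene, and Bcl2a1b, a survival gene, had means of 2.18 and 2.66 CPM after IL-1β. Naip2 and Bcl2a1b have paralogs of similar sequence, and whether the counting split reads between them was not tested. The Bcl2a1b paralogs Bcl2a1a and Bcl2a1d were not called (log2 fold change 0.26 and 0.76). Of 18 further inhibitors and mitochondrial factors tested, Aifm2, which encodes a suppressor of ferroptosis, was higher (log2 fold change 0.54) and Birc5, which encodes the mitotic inhibitor of apoptosis survivin, lower (-1.48).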

How the data were processed

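The authors sequenced QuantSeq 3′ libraries of 6 hepatocyte cultures as 75-nt single reads and, per the labels, aligned them with Bowtie2 to mm10 (GRCm38) and normalized them with edgeR. The counting tool and its handling of strand and of reads matching several genes were not given in the sources used here. The deposited table holds raw counts per gene, used for all results. Its log2 normalized values served as a check of the columns, and its fold changes (ratios) and p-values by the authors were not used.

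Raw counts were analyzed in R 4.3.3 with edgeR 4.0.16 (filterByExpr, TMM, quasi-likelihood test, Benjamini-Hochberg adjustment over all genes tested). Standard errors are the log2 fold change over the square root of F, and intervals are at 95%. On simulated counts, with 200 of 11685 genes changed 2-fold, 88% were called and 3.3% of calls were false. The simulation gave all genes the same spread between samples and changed far fewer genes than the 1563 called here. Its rates are therefore not those of these data, least of all for genes with few reads. Totals of 9538741 to 11105408 counts and a floor of 3 counts cover counting error only. Exact permutation tests used scipy 1.17.1. Alternatives were each sample left out, a replicate block, other scalings and filters, DESeq2 1.42.0 and limma 3.58.1.

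The members and lists were chosen with earlier results of these data known. All 42 members were described, those called or at 10 CPM or more in a group by sample. Of each further list, at most 3 genes were taken by smallest adjusted p. Ripk1, Fasl, Bcl2a1a, Bcl2a1b and Bcl2a1d were added after their values were seen. After removing group means, samples sharing a replicate number had correlations of 0.062, 0.0079 and 0.0038 and were not taken as pairs. A protein comparison of paralogs was not made, and Gsdme, Tf and Ly6g were not matched by symbol. Some genes of the further lists are counted but not reported here by name.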

Additional observations from a re-analysis of the deposited data

How the results depend on the processing

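The 8 calls held, in the same direction, in each of the 15 refits with other tools, scalings, filters, the replicate block or a sample left out, with adjusted p of at most 0.0168 (Gsdmd). Casp4 ranged from 2.29 to 2.82 and Bcl2 from -1.39 to -0.98. The number of members called higher was 6 to 7 and lower 2 with a sample left out, and lower 4 with total counts only, which added Mcl1 and Bcl2l1. With the replicate block, 6 were higher and 3 lower, the third being Mcl1, and all genes called were 1671. With a fold change over 1.5 also required, 4 were higher and 1 lower, and all genes called were 769, against 996 at an adjusted p below 0.01 and 1563 as reported. Calls in all genes were 1131 to 1596 with a sample left out. Of all calls 52.0% were higher, against 39.6% with total counts only.

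Sign changes occurred in 9 members, none of them called. Fadd was at -0.041 with total counts and -0.017 with upper-quartile scaling, and Bak1 at 0.0011 with DESeq2 and 0.0019 with at least 10 counts in every sample. With a sample left out, log2 fold changes ranged from -0.11 to 0.12 for Fadd, -0.071 to 0.089 for Tradd, -0.33 to 0.13 for Tnfrsf12a, -0.26 to 0.88 for Cd40, -0.19 to 0.64 for Casp1, -0.42 to 0.0011 for Casp12, -0.21 to 0.013 for Mlkl, -0.04 to 0.065 for Bak1 and -0.33 to 0.099 for Bbc3. The cause was not tested. Genes with under about 10 reads per library are limited by depth.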
